A study of Arabidopsis thaliana with 6 samples.

Results

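The plastid-encoded genes of photosystem I, photosystem II, the cytochrome b6f complex, the ATP synthase and the large subunit of Rubisco were followed in whole Arabidopsis seedlings of 3 lines. A probe set was taken when its only annotated gene was a plastid locus whose symbol starts with psa, psb, pet or atp, or is rbcL. This gave 33 probe sets, each for a different gene, among the 22810 on the array: 5 of photosystem I, 15 of photosystem II, 6 of the cytochrome b6f complex, 6 of the ATP synthase and rbcL. All 33 were bright enough to be tested with the 13648 probe sets kept after a filter on dim ones. The lines were cls8 and sfr6, each an EMS mutant in the Col-0 background, and the Col-0 wild type. As background, cls8 (crinkled leaves 8) carries a mutation in the large subunit of ribonucleotide reductase, the enzyme that makes deoxyribonucleotides, and is known for altered leaf form and chloroplast division. The sfr6 mutant is sensitive to freezing and lacks a subunit of the Mediator complex, a coactivator of nuclear transcription. Whole seedlings were used at 7 days of age. Seed had been stratified for 4 days at 4 °C, and growth was at 20 °C on MS medium. The plates were then held in the light for 3 h at 4 °C or, as the control, at 20 °C. Each combination of line and temperature was hybridised once, from 40 to 60 pooled plants, so that no group had a replicate. Each mutant was represented by 1 line.

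Chloroplasts keep a small genome of their own, and the photosynthetic complexes are built from its products together with subunits imported from the cytosol. The plastid genome supplies most of the reaction-centre cores, while many peripheral subunits and the light-harvesting antennae are nuclear-encoded. Plastid genes are mostly transcribed as long polycistronic RNAs, which are then cut and trimmed, and the level of each mature RNA depends strongly on processing and stability. Plastid transcripts in general carry no stable poly(A) tail. Per the labels' protocols the labelled RNA was made with an oligo(dT) primer, and how this primer selects among plastid transcripts was not tested. A level here is the intensity of 1 probe set on a linear scale, and levels of different probe sets are not set against each other as amounts of RNA.

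Every array had a trimmed mean intensity of 100, and the median over all probe sets was 41.7 to 45.2. The arrays differed at the bright end. The median intensity of the 100 brightest probe sets outside the plastid was 3424 for cls8 at 4 °C and 2405 for cls8 at 20 °C, with 3006 and 2883 for sfr6 and 2579 and 3319 for the wild type. Outlier cells numbered 922 for cls8 and 1101 for sfr6 at 20 °C, against 406 to 517 on the other arrays. A 25S ribosomal RNA control read 481.5 on the cls8 array at 20 °C and 1424.1 to 2716.3 elsewhere. Both cls8 arrays are titled as repeats, so that a repeated hybridisation and the genotype cannot be told apart. In whole seedlings, fewer green cells, fewer plastids and less of a transcript per plastid cannot be told apart either.

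The comparison of cls8 with the wild type asked whether the mutant's plastid transcripts differed on average over both temperatures. A difference at each temperature by itself was not tested. The clearest differences were in psbT and petG, which fell in cls8. They encode small single-helix membrane proteins of photosystem II and of the cytochrome b6f complex. psbT read 244.1 at 4 °C and 221.9 at 20 °C in cls8, with 477.2 and 419.1 in sfr6, against 504.9 and 578.9 in the wild type. petG read 179.2 and 150.7 in cls8, with 324.8 and 353 in sfr6, against 351.9 and 363.4 in the wild type. For both genes the 2 cls8 arrays lay below all other arrays, with cls8 at 48.3% of the wild type at 4 °C and 38.3% at 20 °C for psbT, and at 50.9% and 41.5% for petG.

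In a limma model with terms for line and temperature over the 6 arrays, psbT had a log2 difference between cls8 and the wild type of -1.17 ± 0.13 (SE), with a Benjamini-Hochberg adjusted p of 0.0166. The log2 difference of petG was -1.06 ± 0.13 (limma adjusted p = 0.0194). These were the only 2 of the 33 genes to pass the threshold of 0.05, against 0.117% of all tested probe sets in either direction and 0.0513% that passed as lower. Without the cls8 array at 20 °C the difference of petG was -0.90 and its adjusted p 0.0553, while psbT passed without any 1 of the 6 arrays, with adjusted p from 0.0026 to 0.0367. With an array left out, its line rests on 1 array, which is assumed to vary like the arrays of the other lines. Neither passed when dim probe sets were not filtered out (adjusted p = 0.268 for both) or without a term for temperature (0.505 for psbT and 0.654 for petG).

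**Figure D1:**
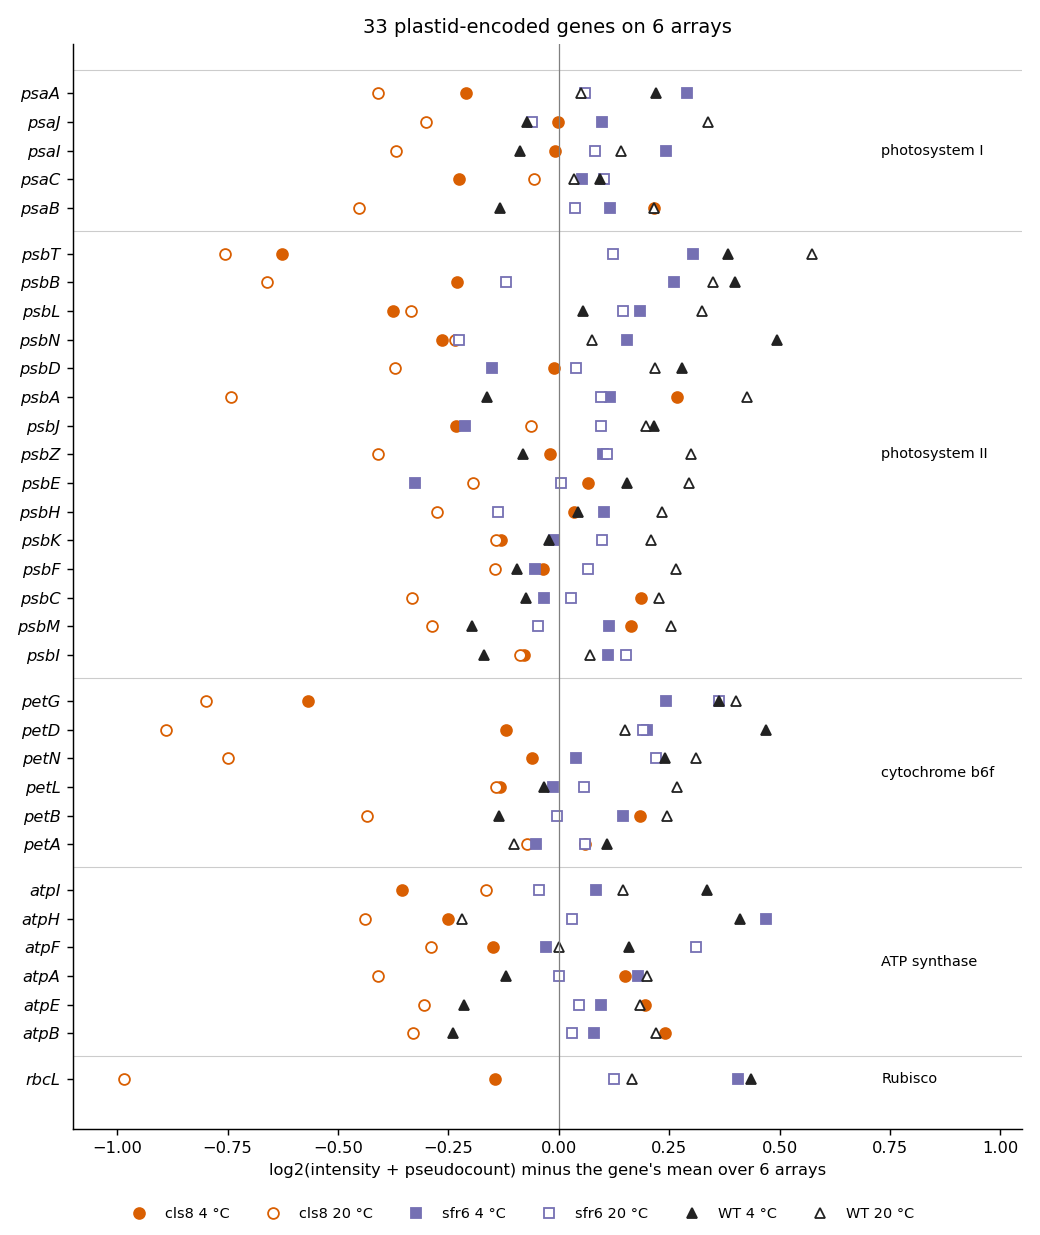
Each row is 1 plastid gene, grouped by complex, and each point is 1 array: its log2(intensity + pseudocount) minus the mean of that gene over the 6 arrays (x axis). Orange circles are cls8, purple squares sfr6 and black triangles the wild type, with filled symbols for 4 °C and open ones for 20 °C. The open orange circle of cls8 at 20 °C is the lowest point in 25 of 33 rows (15% of all tested probe sets), and in the psbT and petG rows both orange circles stand far to the left.

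The remaining genes leaned the same way. The fitted difference was below 0 for all 33 genes, against 52.2% of all tested probe sets, with a median of -0.29 and a range of -1.17 to -0.01. The same quantity had a median of -0.01 over all probe sets tested. At an unadjusted limma p under 0.05, 13 of the 33 were lower in cls8, against 3.2% of all probe sets (6.4% in either direction), and 0 were higher. The count below 0 rested on the arrays at 20 °C: it was 22 of 33 without the cls8 array at 20 °C and 21 of 33 without the wild-type one, each with a median of -0.14, and 32 or 33 without any other array. Both cls8 arrays lay below all 4 other arrays for 15 of the 33, against 6.17% of all probe sets. The genes share arrays and often a primary transcript, so that these counts are not counts of independent events. At 20 °C alone cls8 was below the wild type for 32 of 33 genes (48.7% of all probe sets), the exception being petA, and it was at least 2-fold below for 7 (0.161%): psbT, petG, rbcL, psbA, petN, petD and psbB. At 4 °C it was below the wild type for 20 of 33 (53.7%), of which psbT alone was at least 2-fold below. Of the 100 brightest probe sets outside the plastid, cls8 was also below the wild type for 99 at 20 °C, but for 0 at 4 °C. Their lowest log2 difference at 20 °C was -0.78. The count at 20 °C is thus shared with bright probe sets in general.

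Among the photosystem II genes are those for the reaction centre and its inner antenna. psbA, which encodes the D1 protein at the reaction centre, read 3798.7 at 4 °C and 1878.7 at 20 °C in cls8, against 2819.3 and 4250.3 in the wild type. The cls8 value was thus the higher at 4 °C and the lower at 20 °C, and the fitted log2 difference was -0.37 ± 0.34 (limma adjusted p = 0.914). psbD, for the partner protein D2, read 1119.7 and 873.8 in cls8, against 1370.8 and 1315.6 in the wild type. psbB, for the antenna protein CP47, read 537.1 and 397.1 in cls8, against 838.8 and 813.7 in the wild type, without overlap. Its log2 difference of -0.82 ± 0.14 did not pass (limma adjusted p = 0.151), though it did after quantile normalization (0.0483) and without the wild-type array at 4 °C (0.047). psbC, for the other inner antenna protein, CP43, read 2788.2 and 1935.3 in cls8, against 2321.3 and 2860.3 in the wild type, and so overlapped.

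The small photosystem II subunits covered the whole range. psbL and psbJ, neighbours of the cytochrome b559 genes psbE and psbF, had log2 differences between cls8 and the wild type of -0.55 ± 0.13 and -0.35 ± 0.14. psbE and psbF, whose products bind the haem of that cytochrome, had -0.29 ± 0.16 and -0.18 ± 0.16. psbN, which encodes a protein needed to assemble the photosystem in tobacco, had -0.54 ± 0.15, with 85.7 and 87.9 in cls8 against 155.2 and 112.5 in the wild type. For psbH, psbI, psbK, psbM and psbZ the difference lay between -0.32 and -0.04. The smallest was that of psbI, with 1209.4 and 1203.2 in cls8 and 1389.1 and 1423.6 in sfr6, against 1138.7 and 1350.9 in the wild type. None of these 10 genes passed the threshold.

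In the cytochrome b6f complex, which carries electrons between the photosystems, petG was joined by petD and petN as genes with both cls8 arrays below all other arrays. petD, for subunit IV, read 87.8 at 4 °C and 45.8 at 20 °C in cls8, with 113.3 and 112.2 in sfr6, against 139 and 108.3 in the wild type. petN, for another small subunit, read 339 and 204.7 in cls8, with 362.9 and 413.5 in sfr6, against 418 and 442.2 in the wild type. The log2 difference was -0.81 ± 0.18 for petD (limma adjusted p = 0.336) and -0.68 ± 0.20 for petN (0.633), so neither passed. Both passed without the cls8 array at 4 °C, a fit in which cls8 is its single array at 20 °C, the one with 922 outlier cells and the lowest 25S reading, and the spread comes from the other lines. petL, a small subunit too, was also below all other arrays in cls8, by a smaller -0.26 ± 0.16. The genes petA, for cytochrome f, and petB, for cytochrome b6, had log2 differences of -0.01 ± 0.16 and -0.17 ± 0.26. Mean intensities were 287, 101 and 363 for petG, petD and petN, and 1385, 1460 and 3012 for petL, petA and petB. petA read 1519.5 and 1384.5 in cls8, with 1403.1 and 1519.9 in sfr6, against 1573.7 and 1360 in the wild type, nearly the same at either temperature.

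rbcL encodes the catalytic large subunit of Rubisco, the enzyme that fixes carbon dioxide. It read 708.8 at 4 °C and 389.4 at 20 °C in cls8, with 1047.3 and 857.3 in sfr6, against 1070.3 and 880.6 in the wild type. Both cls8 arrays lay below all the others, at 66.2% of the wild type at 4 °C and 44.2% at 20 °C. The log2 difference of -0.87 ± 0.17 did not pass (limma adjusted p = 0.208). With the 4 °C array of cls8 left out it was -1.15 (0.0119), which is the 20 °C difference alone, with the spread taken from the other lines.

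No gene of photosystem I or the ATP synthase passed. psaA and psaB encode the paired core proteins of photosystem I. psaA read 1314.2 at 4 °C and 1148.5 at 20 °C in cls8, with 1870.2 and 1597.2 in sfr6, against 1775.7 and 1580.5 in the wild type, without overlap, while psaB read 3735.4 and 2342.5 in cls8, with 3476.3 and 3284.5 in sfr6, against 2918.1 and 3735.4 in the wild type. The log2 difference was -0.44 ± 0.15 for psaA and lay between -0.28 and -0.16 for psaB, psaC, psaI and psaJ. For the ATP synthase, the membrane-sector genes atpI, atpH and atpF had differences of -0.50 ± 0.13, -0.44 ± 0.15 and -0.30 ± 0.17, with both cls8 arrays below all other arrays. atpI read 92.7 and 107.6 in cls8, with 130.6 and 118.6 in sfr6, against 158.1 and 136.9 in the wild type. The genes atpA and atpB of the catalytic head, and atpE, had differences of -0.17 ± 0.24, -0.03 ± 0.27 and -0.04 ± 0.25, with overlap. atpB read 4669.9 and 3143.1 in cls8, with 4159.4 and 4014.2 in sfr6, against 3342.1 and 4592.5 in the wild type, so that cls8 was the higher at 4 °C and the lower at 20 °C. The membrane-sector genes were not tested against the other ATP synthase genes. Mean intensities were 124, 813 and 1357 for atpI, atpH and atpF, against 2993, 3987 and 3520 for atpA, atpB and atpE.

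**Figure D2:**
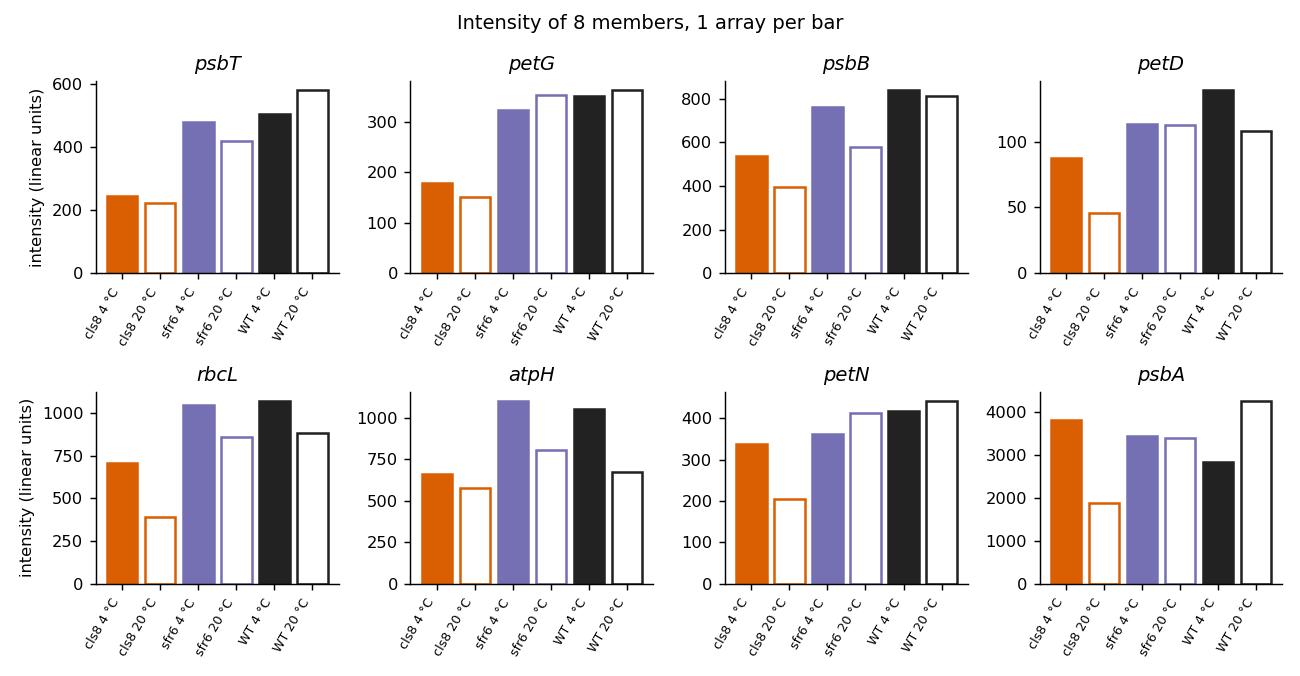
Intensity on a linear scale (y axis, from 0) of 8 plastid genes, with 1 bar for each array, ordered as cls8, sfr6 and the wild type, 4 °C (filled) before 20 °C (open) in each. The cls8 bars of psbT and petG stand well below the other 4 bars, while for psbA the cls8 bar is high at 4 °C (3798.7) and the lowest of all at 20 °C (1878.7).

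At 4 °C the difference between cls8 and the wild type followed the brightness of the probe set, with r = 0.86 and Spearman's rho 0.91 against the mean log2 level across the 33 genes. At 20 °C it did not, with r = 0.17 and rho -0.01, and the fitted difference over both temperatures had r = 0.70 and rho 0.76. These are descriptions over genes that share the same arrays. Gene length had r = 0.09 with the fitted difference. The 9 brightest genes (psaJ, petB, psbM, psbC, psaB, atpE, atpB, atpA and psbA) reached the brightness of the 100 brightest probe sets outside the plastid, a band set after the values were seen. In these 9 the median log2 difference was 0.35 at 4 °C and -0.61 at 20 °C, and in those 100 it was 0.40 and -0.43. In the 24 dimmer genes it was -0.32 at 4 °C and -0.47 at 20 °C. After quantile normalization, which makes the distributions of the arrays equal and brings those 100 to medians of 0.00 and 0.02, cls8 was below the wild type for 30 of 33 genes at 4 °C (50.8% of all tested probe sets) and 31 of 33 at 20 °C (49.9%). The fitted difference was then below 0 for 31 of 33, with a median of -0.28, and psbT and petG passed at -1.19 and -1.08 along with psbB.

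**Figure D3:**
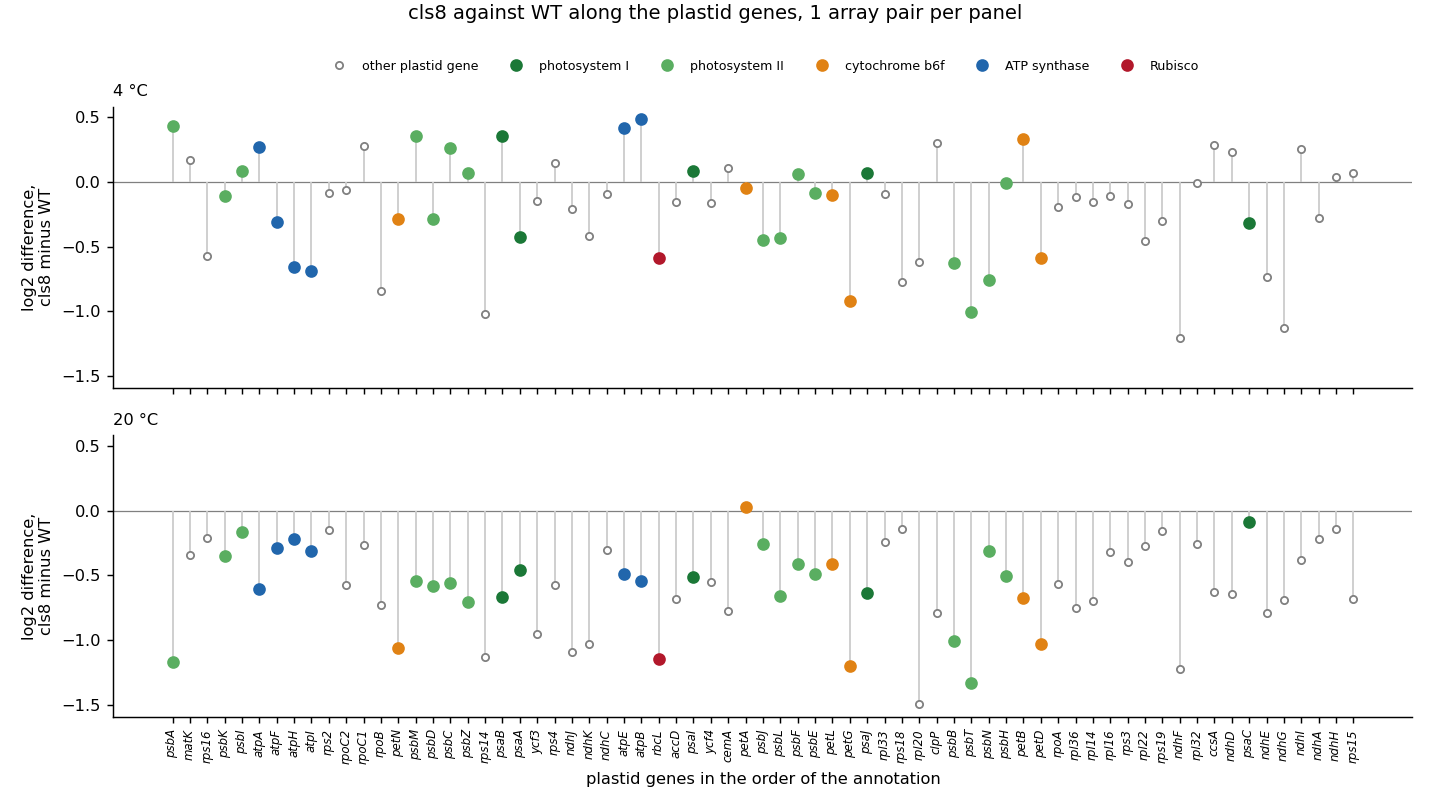
The log2 difference between cls8 and the wild type (y axis) for the 69 plastid genes with a probe set of their own, in the order of the annotation (x axis), at 4 °C in the upper panel and at 20 °C in the lower. Coloured points are the 33 photosynthesis genes by complex and open grey points the other plastid genes. At 20 °C petA is the only coloured point above 0, and at 4 °C the points lie on both sides, with psbT and petG the lowest of the coloured ones.

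Within clusters of neighbouring genes the values were uneven, though differences between neighbours were not tested. In the psbB cluster, which is transcribed as 1 unit, the log2 differences between cls8 and the wild type ran along the transcript as -0.82 for psbB, -1.17 for psbT, -0.26 for psbH, -0.17 for petB and -0.81 for petD. Their probe sets had mean intensities of 655, 408, 1632, 3012 and 101 in that order. psbN lies within the same cluster on the opposite strand, at -0.54, with a mean intensity of 108. Of the neighbours petL, petG and psaJ, petG had -1.06 and the others -0.26 and -0.28. Here the mean intensities were 1385 for petL, 287 for petG and 2639 for psaJ. In the cluster of atpI, atpH, atpF and atpA the fitted differences were -0.50, -0.44, -0.30 and -0.17. At 4 °C they were -0.69, -0.66, -0.31 and 0.27, but at 20 °C -0.31, -0.22, -0.29 and -0.61, so that the order held at 4 °C alone. The mean intensities of these probe sets, in the same order, were 124, 813, 1357 and 2993. atpB and atpE, another pair of neighbours, had -0.03 and -0.04. psaA and psaB had -0.44 and -0.16, and psbD, psbC and psbZ had -0.44, -0.15 and -0.32. Mean intensities were 3987 and 3520 for atpB and atpE, and 1548 and 3249 for psaA and psaB. For psbD, psbC and psbZ they were 1143, 2465 and 1751.

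Beyond these complexes, the other 36 plastid genes with a probe set of their own had a median log2 difference between cls8 and the wild type of -0.33. Of these, 35 were below 0, against 52.2% of all tested probe sets. Of these 36, 1 passed (0.117% of all probe sets), ndhF of the NADH dehydrogenase-like complex, at -1.22 (limma adjusted p = 0.0158). Its probe set was dim, with 29.2 at 4 °C and 29.4 at 20 °C in cls8, below the median of every array. It read 91.8 and 85.4 in sfr6, and 86 and 87.5 in the wild type. The median was -0.45 over 10 ndh genes, -0.35 over 4 RNA polymerase genes, -0.31 over 15 ribosomal protein genes and -0.33 over the 7 others. The nuclear-encoded partners of the same complexes were measured through 11 genes (PSAN, PSAE-1, PSBY, PSB27, PSBW, LHCB4.1, LHCB4.2, LHCB4.3, ATPC1, ATPC2 and RCA). None of them passed for cls8, and their log2 differences lay between -0.20 and 0.27, with 6 of 11 below 0. The median of the 11 was 0.44 at 4 °C and -0.39 at 20 °C. Of 18 probe sets for mitochondrial genes 3 were bright enough to be tested, nad4, nad1 and cox1, with differences of -0.51, -0.35 and -0.25, none of which passed. No sigma factor, phage-type RNA polymerase or nuclear-encoded b6f subunit of the lists had a named probe set, so these were not analysed here. Of the tissue markers with a named probe set, PYK10 and EXPA7 of the root, FMA of guard cells and AUR1 of dividing cells, none passed for cls8, with differences from -0.19 to 0.03.

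The comparison of 4 °C with 20 °C over the 3 lines asked which of these transcripts responded to chilling. Only rbcL and atpH passed the threshold, both as higher at 4 °C, and no gene passed as lower. rbcL averaged 942 ± 202 at 4 °C and 709 ± 277 at 20 °C (SD, n = 3 arrays each), with 708.8, 1047.3 and 1070.3 at 4 °C in cls8, sfr6 and the wild type, against 389.4, 857.3 and 880.6 at 20 °C. atpH, for the ring subunit of the membrane sector that turns with proton flow, read 663.1, 1101.9 and 1054.6 at 4 °C in the same order, against 577.9, 807 and 674 at 20 °C. Both genes were higher at 4 °C in every line, but the ranges of the 2 temperatures overlapped, since the cls8 values were low throughout.

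With line in the limma model, the log2 difference between 4 °C and 20 °C was 0.47 ± 0.14 for rbcL (adjusted p = 0.0437) and 0.42 ± 0.12 for atpH (adjusted p = 0.0391). So 2 of 33 genes passed, a share of 6.06%, against 18.8% of all tested probe sets (9.58% higher and 9.25% lower). Neither call held without a filter on dim probe sets (adjusted p = 0.129 for rbcL and 0.103 for atpH) or without the line term (0.355 and 0.217), and that of rbcL was lost when the arrays were shifted to the same median (0.0523). Neither held without 1 of the sfr6 arrays. The adjusted p of rbcL was then 0.0967 (without 20 °C) and 0.0921 (without 4 °C), and that of atpH 0.176 and 0.165. rbcL did not pass without the cls8 array at 20 °C (log2 difference 0.28, 0.161) or at 4 °C (0.28, 0.159), nor atpH without the wild-type array at 20 °C (0.32, 0.211) or at 4 °C (0.32, 0.198).

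The other 31 genes had fitted differences between -0.16 for psbJ and 0.37 for petD, and the median over all 33 was 0.05. For none of the 33 did the 3 arrays at 4 °C all lie above the 3 at 20 °C, against 14.5% of all probe sets, nor all below them (18.5%). Besides rbcL and atpH, psaA, psbB and petD were higher at 4 °C in each line, which makes 5 of 33 (23.2%). psbB read 537.1, 762.7 and 838.8 at 4 °C in cls8, sfr6 and the wild type, against 397.1, 580.6 and 813.7 at 20 °C. By complex, the median difference was 0.05 for the ATP synthase, 0.10 for the cytochrome b6f complex, 0.10 for photosystem I and 0.04 for photosystem II. All 11 nuclear-encoded partners also stayed short of the threshold, with a median of -0.09.

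**Figure D4:**
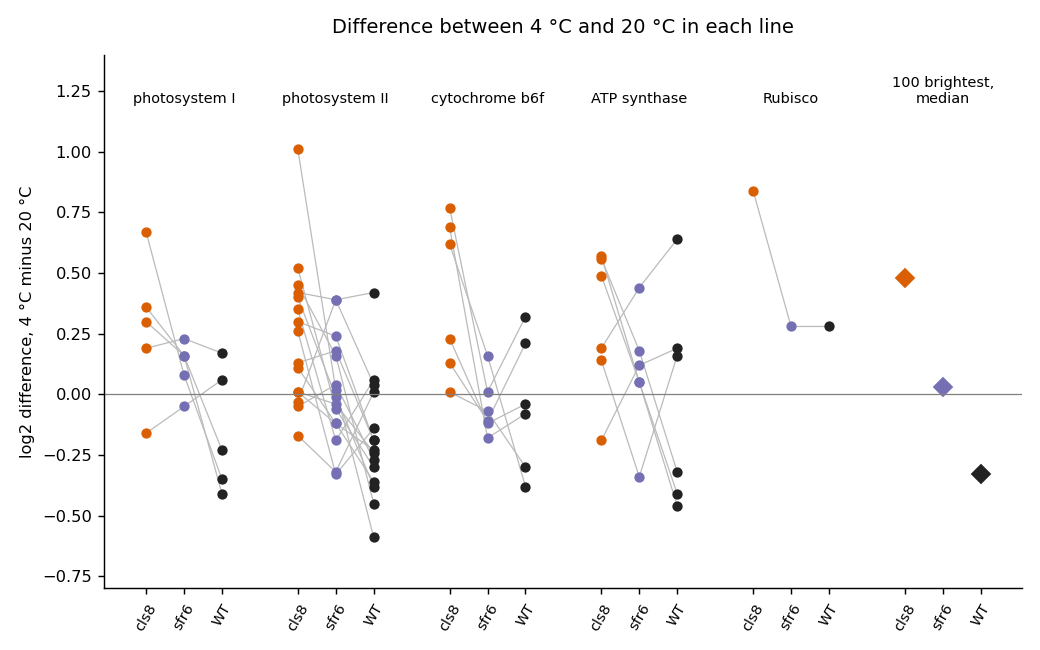
The log2 difference between 4 °C and 20 °C (y axis) of each plastid gene in cls8, sfr6 and the wild type, grouped by complex, with a grey line joining the 3 values of a gene, and diamonds for the median of the 100 brightest probe sets outside the plastid. Each value comes from 1 pair of arrays. Most orange cls8 points lie above 0 and most black wild-type points below it, and the diamonds stand in the same order at 0.48, 0.03 and -0.33.

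Within lines the direction depended on the scaling. On the deposited scale, in cls8 28 of 33 genes were higher at 4 °C than at 20 °C (43.1% of all probe sets), in sfr6 19 (48.1%) and in the wild type 12 (45.5%), with median log2 differences of 0.30, 0.04 and -0.19. After quantile normalization the counts were 19 in cls8 (47.1%), 16 in sfr6 (46%) and 16 in the wild type (47.1%), with medians of 0.05, 0.00 and -0.03. On the deposited scale, for 20 genes the value at 4 °C was higher in cls8 and lower in the wild type, against 14.3% of all probe sets. Of the 100 brightest probe sets outside the plastid, 100 were higher at 4 °C in cls8 and 94 lower in the wild type. The log2 difference of psbA between 4 °C and 20 °C was 1.01 in cls8, 0.02 in sfr6 and -0.59 in the wild type. After quantile normalization it was 0.55 in cls8 and -0.19 in the wild type. On the deposited scale the differences in cls8, sfr6 and the wild type were 0.69, -0.18 and -0.08 for petN. For petD they were 0.77, 0.01 and 0.32 on that scale. atpH ran the other way on the deposited scale, with 0.19, 0.44 and 0.64, as did psbN, with -0.03, 0.39 and 0.42.

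A limma model with a cold term of its own for cls8, with 1 residual degree of freedom, tested the response in cls8 against the mean of the other lines. None of the 33 genes passed, against 0.0147% of all probe sets. At an unadjusted p under 0.05, 12 had a larger log2 difference in cls8 (3.06% of all probe sets) and 0 a smaller one (3.88%, and 6.94% in either direction). After quantile normalization 5 had such a p (4.84% of all probe sets), 1 of them with a smaller difference in cls8. With no filter 3 did, all larger (5.43% of all probe sets in either direction). The limma adjusted p was 0.43 for psbA and 0.449 for petN, whose response was larger in cls8 by 0.82 ± 0.22. The median over the 33 was 0.36, but 0.65 over the 100 brightest probe sets outside the plastid and 0.71 over the 11 nuclear-encoded partners. After quantile normalization the median of the 33 was 0.02, with petN at 0.82 and psbA at 0.65.

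**Figure D5:**
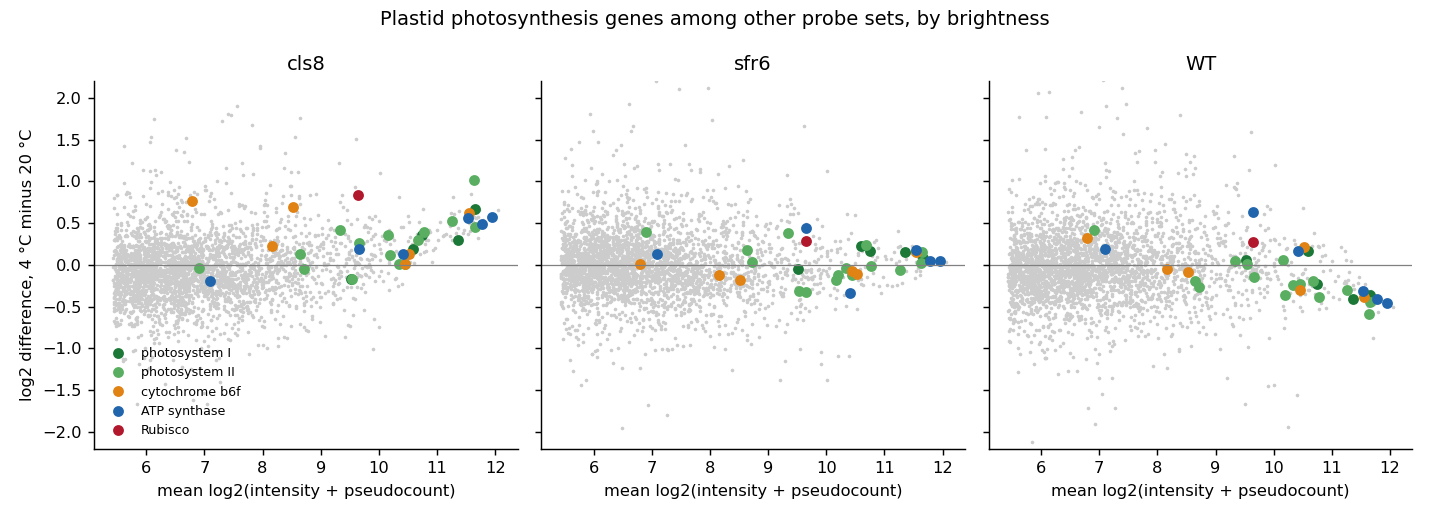
The log2 difference between 4 °C and 20 °C (y axis, shown from -2.2 to 2.2) against the mean log2(intensity + pseudocount) over 6 arrays (x axis) in cls8, sfr6 and the wild type, with the 33 plastid genes coloured by complex and 3000 other probe sets in grey. At the bright end the grey points and the plastid genes both bend upward in cls8 and downward in the wild type.

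The comparison of sfr6 with the wild type asked the same of the other mutant, and no difference passed. None of the 33 did so in limma, against 1.34% of all probe sets, and 1 had an unadjusted p under 0.05 (11.5% in either direction, 6.32% lower). This was psbE, at 630.2 and 795.2 in sfr6 for 4 °C and 20 °C, against 880.7 and 974.9 in the wild type. Its log2 difference was -0.38 ± 0.16 (limma adjusted p = 0.419). After quantile normalization the count at an unadjusted p was 6, of which 5 lower, against 12.7% of all probe sets. It was 4, all lower, on the 4 arrays of sfr6 and the wild type alone (12.8%). The median fitted difference of the 33 was -0.25 without the wild-type array at 4 °C and 0.01 without the sfr6 array at 4 °C. At 20 °C 26 of 33 genes were below the wild type in sfr6 (50.3% of all probe sets), and at 4 °C 14 (46.6%). After quantile normalization these counts were 24 (47.7%) and 17 (47.9%). On the deposited scale, 87 of the 100 brightest probe sets outside the plastid were also below the wild type at 20 °C, as were all 11 nuclear-encoded partners. Their median log2 differences at 20 °C were -0.17 and -0.25, against -0.18 for the 33 genes. The fitted differences of the 33 lay between -0.38 and 0.18, with a median of -0.03. Both sfr6 arrays lay below both wild-type arrays for 7 genes (psbB, psbT, psbD, psbE, psbJ, petN and atpI), against 13.3% of all probe sets, and above them for psbI alone (13.7%). For psbT the difference was -0.27 ± 0.13 and for petG -0.08 ± 0.13, and rbcL had -0.03 ± 0.17. With a cold term of its own for sfr6, 0 of the 33 passed in limma (0% of all probe sets), and 0 of them had an unadjusted p under 0.05 (4.9%). Of the 11 nuclear-encoded partners 1 passed for sfr6, LHCB4.3, an antenna protein of photosystem II, with a log2 difference of -0.78 (limma adjusted p = 0.028). Its probe set was dim, at 56.5 and 57.2 in sfr6 for 4 °C and 20 °C, against 116.6 and 99.2 in the wild type. The brighter LHCB4.1 and LHCB4.2 had differences of -0.09 and 0.02.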

How the data were processed

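Biotin-labelled cRNA of whole seedlings was hybridised to 6 ATH1 arrays, 1 for each line and temperature. The authors deposited an intensity for each probe set, on a linear scale. The values themselves show a mean of 100 on each array once the lowest and highest 2% are left out. How probes were summarised is not stated in what was used here. GEO's annotation names 1 gene for 13513 probe sets, several for 503 and none for 8730. Plastid loci and gene order came from RefSeq's table for TAIR10.1. With 64 controls set aside, log2(intensity + 14.1) was taken, where 14.1 is the 25th percentile of the whole table, and a probe set was kept when its mean log2 value reached the 40th percentile. Linear models were fitted with limma 3.58.1 under R 4.3.3 (lmFit, then eBayes with trend), with terms for line and temperature over all 6 arrays, 2 residual degrees of freedom and a prior of 6.82. Two-sided p-values were adjusted by Benjamini-Hochberg over 13648 probe sets, with a threshold of 0.05. Both mutants were set against the same wild-type arrays. No label speaks of separate cultures, so p measures only the spread between these arrays, and their number limits the precision. The genes, lists and tests were chosen with earlier results of these data known. Every plastid gene of the complexes was described, with each array's value for those that passed and for the largest and smallest cls8 difference of each complex. Other settings were tried for the pseudocount, filter, normalization, variance trend and model terms, and arrays were left out in turn.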

Additional observations from a re-analysis of the deposited data

How the results depend on the processing

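With 1 array a group and 2 residual degrees of freedom, the number of arrays limits every test here. Replicate numbers only name the arrays, so no pairing was taken from them. The cold comparison is paired by line, because the term for line sets the arrays of a line against each other. Leaving an array out of the fits with a cold term for 1 line leaves no residual degrees of freedom, so this was not run. The cause of the shifts below was not tested.

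Of the 33 genes, 2 passed for cls8: 0 did with no filter on dim probe sets, 0 without a temperature term, 1 without the intensity trend, and 1 to 5 with an array left out. For cold 2 passed: 0 with no filter, 0 without a line term, 1 with arrays shifted to the same median, 1 on the 4 arrays of sfr6 and the wild type, and 0 to 1 with an array left out. For sfr6 and both cold terms the count was 0 in every setting run.

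Over all probe sets, 16 passed for cls8, with 4 under no filter, 9 under a filter at the 60th percentile, 1 without a temperature term and 14 to 27 with an array left out. For sfr6 183 passed, with 18, 177 and 0 in the same settings, 409 on its 4 arrays with the wild type and 65 to 411 with an array left out. For cold 2570 passed, with 1445 under no filter, 1589 without a line term and 1528 to 2290 with an array left out. The cold term of cls8 had 2, with 5 under no pseudocount, 7 under a pseudocount at the median, and 0 under no filter, quantile normalization, the median shift or no trend. That of sfr6 had 0, with 2 at the 60th percentile and 1 each under quantile normalization and the median shift. Of the differences that passed, those of psbT, petG, rbcL and atpH kept their sign in every setting run. The median over the 33 genes, which was not tested, lay on both sides of 0 across settings, from -0.11 to 0.21 for cold and from -0.25 to 0.07 for sfr6.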
